A study of Mus musculus and Homo sapiens with 30 samples.

Results

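Wnt signalling was followed through 10 mouse genes, out of 56980 gene IDs counted in the mouse libraries of the study. They are the TLE (Groucho) corepressors Tle1, Tle2, Tle3 and Tle4, the TCF/LEF transcription factors Lef1, Tcf7 and Tcf7l2, the feedback gene Axin2, the matricellular gene Ccn5 and the ligand Wnt9a. The genes were picked by name with results of these data already known, because Tle2 had one of the largest falls in E0771 cells given lean secretome. Among 3423 genes that fell there with a mean log2 CPM (counts scaled to a common library total) of at least 2, Tle2 (log2 change of -2.14) had rank 2, after Thrsp (-2.30) and before Slco2b1 (-2.08). The E0771 values with lean secretome are therefore a description with no test. The same holds for Tle2 and Ccn5 in E0771 with obese secretome and for Tle2 between the lines. Ccn5 was already known as the largest rise in E0771 with obese secretome over control.

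The lines were E0771, from a mouse mammary carcinoma, and NMuMG, from normal mouse mammary epithelium, although the labels list both under breast cancer. Each line was grown for 36 h and then kept for 16 h in 1 of 3 media, with 3 libraries per medium. The control was standard growth medium, and the other media were equal parts (50% each) of growth medium and the secretome of lean or of obese inguinal adipocytes. Growth medium was DMEM with 10% FBS, to which 10 mcg/ml insulin and 4.5 g/L glucose were added for NMuMG, so that line and medium cannot be told apart. Control medium held no secretome, so only lean and obese secretome are matched for its share. The control libraries serve both comparisons against control, and the lean libraries serve both comparisons of lean medium. The labels do not say whether replicates came from separate cultures or separate batches of secretome, so the p-values measure only the spread between these libraries, which may be technical. The 12 libraries of the human line SkBr3 in the same study were not analysed here.

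The 18 mouse libraries held 22929035 to 31094119 counts each. Of the epithelial markers, E0771 held Krt8 (mean of 235 CPM), while Krt19, Cldn3 and Esrp1 were at 0 and Krt18, Cldn7, Epcam, Cldn4 and Cdh1 had at most 8 counts in any library. Of the 9 mesenchymal markers, E0771 held Vim, Sparc and S100a4 (means of 2541, 966 and 276 CPM) and Zeb1, Zeb2 and Twist1 (77.6, 74.6 and 37.1 CPM), while Fn1 was at 0 and Cdh2 and Snai2 had at most 5 counts in any library. NMuMG held Krt8, Krt18, Krt19 and Cdh1 (means of 3659, 2672, 768 and 533 CPM). Epcam and Cldn4 were low there (2.26 and 1.42 CPM). Cldn3 and Esrp1 had at most 3 counts in any NMuMG library and Cldn7 was at 0. All 9 mesenchymal markers were present in NMuMG. Vim, Fn1, Sparc and Cdh2 had means of 1893, 1341, 674 and 269 CPM. Zeb1, S100a4 and Zeb2 had 56.0, 34.5 and 17.4 CPM, and Snai2 and Twist1 had 6.68 and 1.14 CPM. The adipocyte genes Adipoq, Plin1, Lep, Cfd and Retn had at most 6 counts in any library of either line, as did Itgam and Cd3e among the leukocyte markers. Other genes of these lists were present: Lipe in both lines (means of 8.37 CPM in E0771 and 9.25 CPM in NMuMG), Pparg (22.1 CPM), Cidec (1.11 CPM) and Cd14 (190 CPM) in NMuMG, and Fabp4 (0.864 CPM) and Lyz2 (3.06 CPM) in E0771. Cd68 had means of 1.88 CPM in E0771 and 3.60 CPM in NMuMG.

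In canonical Wnt signalling, secreted ligands bind Frizzled and LRP receptors and stop a destruction complex, built on AXIN and APC, from degrading beta-catenin. Beta-catenin then enters the nucleus and binds TCF/LEF factors, which sit on target genes. Without beta-catenin these factors carry TLE corepressors, which silence the targets. Many target genes, Axin2 and Lef1 among them, are used as readouts of the pathway, and AXIN2 protein feeds back to restrain it. In the mammary gland the pathway is known for its part in progenitor cells and, when overactive, in tumours.

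The start-site windows of Tle2 and Axin2 are shown because these genes had lower levels with lean secretome in both lines. Each window runs from 250 bases before to 50 bases after a start, from RefSeq on GRCm38.p6. The Tle2 window is chr10:81575037-81575336 on the + strand and the Axin2 window is chr11:108920099-108920398 on the + strand. Capitals mark the GC box, searched as GGGCGG and its reverse complement CCGCCC.
Tle2: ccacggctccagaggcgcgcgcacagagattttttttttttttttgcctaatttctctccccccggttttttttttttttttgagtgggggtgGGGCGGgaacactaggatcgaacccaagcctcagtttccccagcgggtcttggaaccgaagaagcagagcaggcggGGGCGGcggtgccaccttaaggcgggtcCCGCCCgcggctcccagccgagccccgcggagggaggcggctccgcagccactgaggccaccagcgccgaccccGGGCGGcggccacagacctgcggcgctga
Axin2: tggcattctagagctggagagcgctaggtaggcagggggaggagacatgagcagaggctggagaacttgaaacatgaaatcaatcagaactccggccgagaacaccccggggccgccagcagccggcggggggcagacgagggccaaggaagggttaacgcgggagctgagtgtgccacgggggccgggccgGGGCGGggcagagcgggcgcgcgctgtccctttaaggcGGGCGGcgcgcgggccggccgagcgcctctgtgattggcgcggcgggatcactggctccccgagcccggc
The Tle2 window held 4 GC boxes and was 64.7% G and C, and the Axin2 window held 2 and was 70% G and C, against a median of 52.7% over all windows. GC boxes were found in 35.7% of 32851 windows. They were also in windows of genes that were not lower with lean secretome in both lines. Tle1 had 4, Wnt9a 5, the Tcf7 windows 2 and 1, and each Tle4 window 2. The Tcf7l2 windows had 6 and 0, and the Tle3 window had 0. The core of the TCF/LEF motif, searched as CTTTGA and its reverse complement TCAAAG, was in 16% of the windows. It was in neither of the windows printed above, and of 15 windows of 9 of the genes it was in 1 of Lef1, with 2 matches. Other forms of the motif and bases outside these windows, such as introns, were not searched, so TCF/LEF sites elsewhere in these genes remain possible.

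Tle2, a full-length member of the TLE family, was lower with lean secretome in both lines. In E0771 it stood at 85.0, 67.4 and 75.1 CPM in the control libraries, at 16.8, 18.5 and 17.5 CPM with lean secretome, and at 50.5, 61.8 and 57.1 CPM with obese secretome. The 3 media did not overlap, with lean lowest and obese between. In that line the log2 change was -2.14 (SE 0.0943) for lean over control and -1.70 (SE 0.0954) for lean over obese, given with no test. For obese over control it was -0.44 (SE 0.0849), also with no test.

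NMuMG libraries were not used in the ranking of Tle2 above, although the genes were picked with results of these data known. They held Tle2 at 20.0, 20.4 and 17.6 CPM in control medium. The level was 9.68, 9.78 and 8.71 CPM with lean secretome and 12.0, 17.2 and 13.9 CPM with obese secretome. Again the media did not overlap and lean was lowest. Tle2 fell with lean secretome by 1.04 on the log2 scale (SE 0.0993, edgeR adjusted p = 2.11e-09), and it was lower with lean than with obese secretome (log2 difference of -0.61, SE 0.104, edgeR adjusted p = 3.86e-05). It also fell with obese secretome by 0.43 (SE 0.0949, edgeR adjusted p = 0.0056), a call that was lost without control replicate 1 (adjusted p = 0.0515) or without control replicate 2 (adjusted p = 0.0545). Of 6221 exon bases of Tle2, 98 are shared with the antisense gene Gm15917, whose 68 counts compare with 15670 of Tle2 over all mouse libraries.

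**Figure D1:**
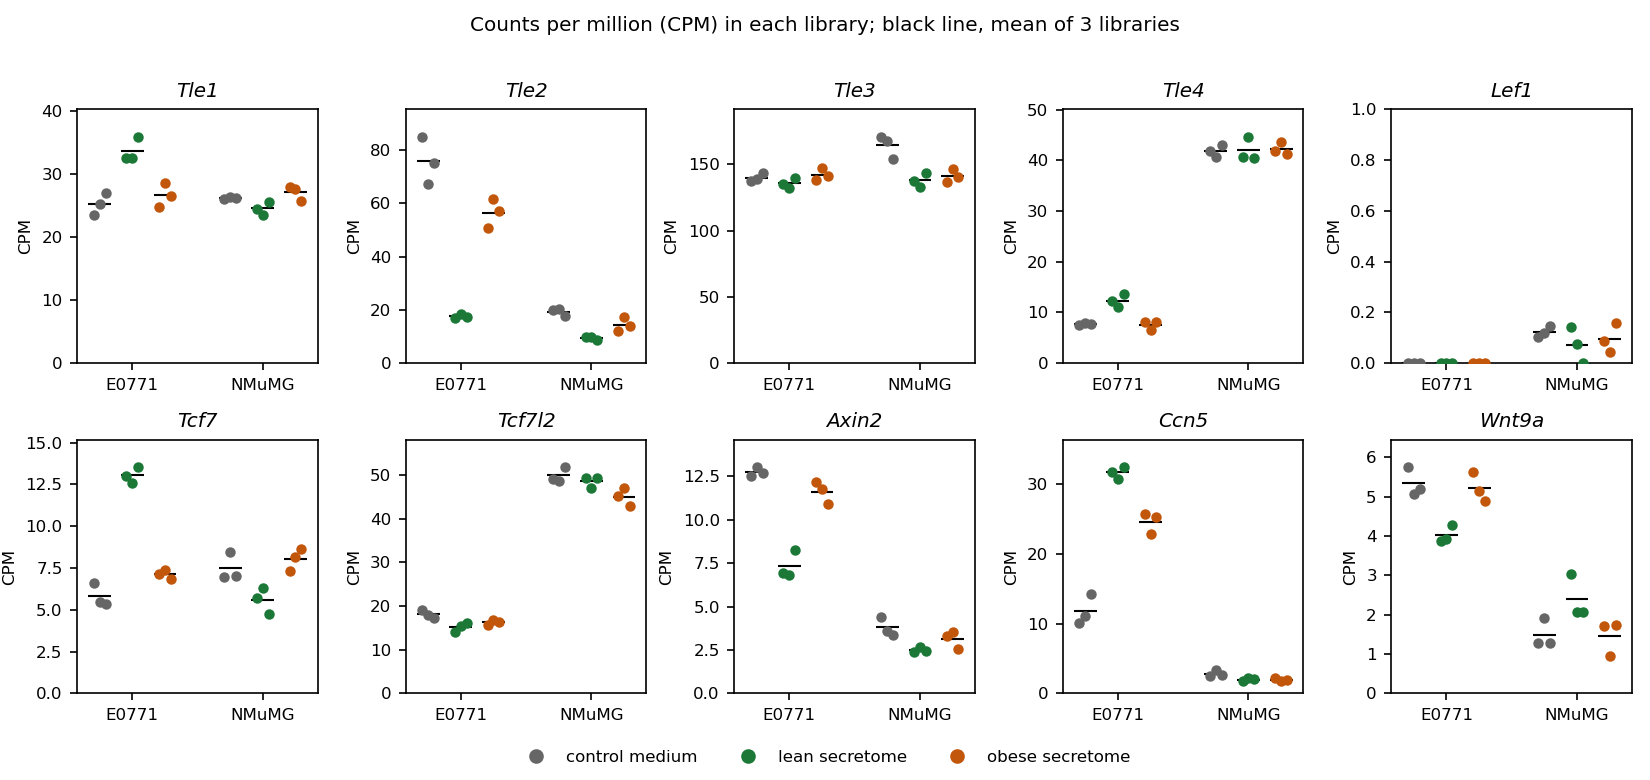
CPM (vertical axis, linear, from 0, with its own range in each panel) of the 10 genes in each of the 18 libraries, by line and medium; points are libraries and the black line is the mean of 3. Tle2 is lowest with lean secretome in both lines, the lean libraries of Tcf7 and Ccn5 lie above control in E0771 and below it in NMuMG, and Lef1 is at or near 0.

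Tle1 and Tle4, which share the TLE domain layout, were higher in all lean than in all control libraries of E0771. Tle1 had 23.5, 25.2 and 27.0 CPM in control and 32.5, 32.5 and 36.0 CPM with lean secretome, a log2 change of 0.39 (SE 0.069) with no test. Tle4 had 7.49, 7.90 and 7.79 CPM in control and 12.3, 11.0 and 13.6 CPM with lean secretome, a log2 change of 0.65 (SE 0.103) with no test. Neither was called in NMuMG, where lean over control gave -0.10 for Tle1 (edgeR adjusted p = 0.235, 95% interval from -0.215 to 0.025). For Tle4 it gave 0.01 (edgeR adjusted p = 0.943, interval from -0.096 to 0.109). Tle1 was at 26.0, 26.4 and 26.3 CPM in NMuMG control and at 24.5, 23.6 and 25.6 CPM with lean secretome. These 2 sets do not overlap, although the difference was not called.

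Tle3, another full-length family member, overlapped between the media in E0771 and was lower with both secretomes in NMuMG. In E0771 it had 138, 139 and 143 CPM in control, 135, 132 and 140 CPM with lean secretome and 138, 147 and 141 CPM with obese secretome. In NMuMG it had 171, 168 and 154 CPM in control, 137, 133 and 144 CPM with lean secretome and 137, 147 and 141 CPM with obese secretome. There every secretome library lay below every control library. The log2 change in NMuMG was -0.25 for lean over control (SE 0.0401, edgeR adjusted p = 4.66e-06) and -0.22 for obese over control (SE 0.0402, edgeR adjusted p = 0.000537). Lean and obese secretome differed by -0.03 (edgeR adjusted p = 0.584, interval from -0.112 to 0.047).

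Per kilobase of exon, the 4 TLE genes together stood at 28.4 CPM per kb (SD 1.28, n = 3) in E0771 control, 20.5 (SD 0.734) with lean and 25.7 (SD 1.38) with obese secretome. The length used is that of all annotated exons of a gene joined, not of the transcripts expressed. Shares and ranks between genes depend on it. Tle2 made up 42.8% of that sum in control (SD 3.22), 13.8% with lean (SD 0.927) and 35.3% with obese secretome (SD 1.66). The share of Tle3 in E0771 was 42.2% in control and 56.9% with lean secretome, at a CPM that overlapped between the media. In NMuMG the sum was 27.6 CPM per kb in control, 23.5 with lean and 25.0 with obese secretome. Tle2 was a smaller part of it there: 11.3% in control (SD 0.568), 6.41% with lean (SD 0.455) and 9.20% with obese secretome (SD 1.29). Tle4 held 26.7% of the sum in NMuMG control and 4.77% in E0771 control.

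**Figure D2:**
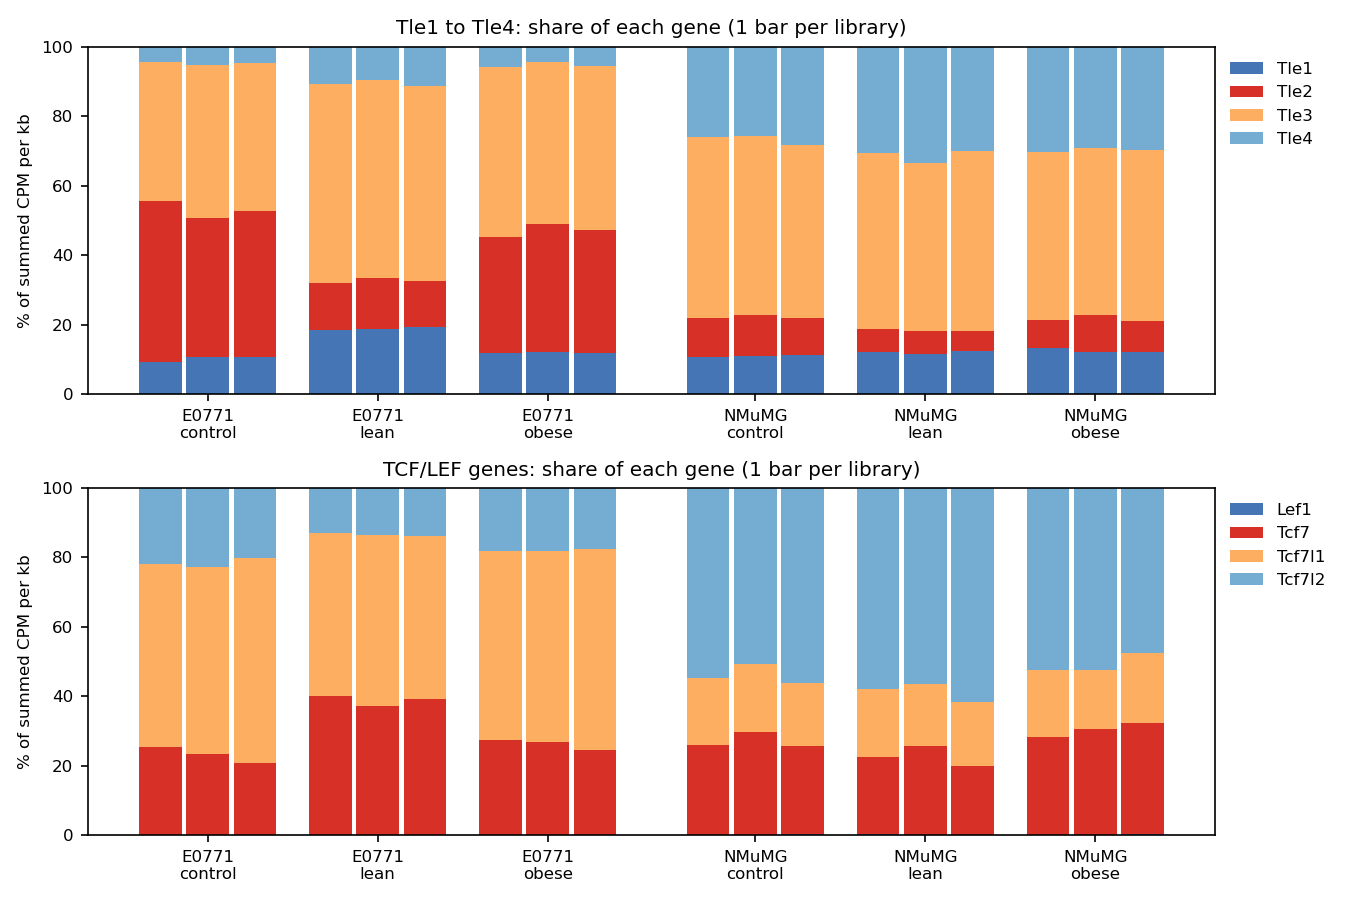
Share (%) of each gene in the summed CPM per kb of Tle1 to Tle4 (top) and of the TCF/LEF genes (bottom), 1 bar per library, by line and medium. The Tle2 part is 40.1% to 46.4% in E0771 control libraries and 13.2% to 14.9% with lean secretome, and the Tcf7 part is 20.9% to 25.2% and 37.2% to 40.0%.

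Of the TCF/LEF factors, Lef1 was not detected in E0771, with 0 counts in all 9 libraries; 3 counts in a library would be 0.0965 to 0.131 CPM. In NMuMG it had 0 to 4 counts in a library and 23 in all, so Lef1 was at or near the floor of detection in both lines. Lef1 did not pass the filter on low counts, and the other 9 genes did in both lines.

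Tcf7, which encodes TCF1, stood above control with lean secretome in E0771 and fell in NMuMG. In E0771 it had 6.59, 5.49 and 5.36 CPM in control, 13.0, 12.6 and 13.5 CPM with lean secretome and 7.14, 7.40 and 6.87 CPM with obese secretome. All lean libraries were above the rest, with a log2 change of 1.14 (SE 0.101) over control and 0.86 (SE 0.0982) over obese secretome, given with no test. In NMuMG it had 6.93, 8.46 and 7.05 CPM in control, 5.72, 6.31 and 4.76 CPM with lean secretome and 7.30, 8.17 and 8.65 CPM with obese secretome. There lean was lowest: Tcf7 fell by 0.41 against control (SE 0.12, edgeR adjusted p = 0.00615) and differed by -0.52 from obese secretome (SE 0.121, edgeR adjusted p = 0.000819). The call against control was lost without control replicate 2 (adjusted p = 0.0642) or lean replicate 3 (adjusted p = 0.0556).

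Tcf7l2, which encodes TCF4, had 19.2, 17.9 and 17.3 CPM in E0771 control, 14.0, 15.4 and 16.1 CPM with lean secretome and 15.6, 16.9 and 16.4 CPM with obese secretome. Control was highest, and the log2 change with lean secretome was -0.28 (SE 0.078) with no test. In NMuMG it had 49.2, 48.8 and 51.9 CPM in control, 49.4, 47.0 and 49.3 CPM with lean secretome and 45.3, 47.0 and 42.9 CPM with obese secretome. No NMuMG comparison of Tcf7l2 was called, with log2 changes of -0.04 for lean over control (edgeR adjusted p = 0.58) and -0.15 for obese over control (edgeR adjusted p = 0.0793). Without obese replicate 2 the latter was called (adjusted p = 0.0418), as was lean over obese (adjusted p = 0.0488).

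Within the TCF/LEF family, Tcf7 made up 23.1% of the CPM per kb in E0771 control (SD 2.19, n = 3) and 38.8% with lean secretome (SD 1.45). Tcf7l1, a factor known mainly as a repressor, was the larger part of the family in E0771, at 55.2% in control and 47.7% with lean secretome. In NMuMG it was Tcf7l2 that held the larger part, with 53.9% in control and 58.8% with lean secretome, beside 26.9% and 22.6% for Tcf7. The family sum went from 9.57 to 12.8 CPM per kb in E0771 and from 10.6 to 9.42 in NMuMG.

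Axin2, the feedback scaffold and usual readout gene, was lower with lean secretome in both lines. In E0771 it had 12.5, 13.0 and 12.7 CPM in control, 6.93, 6.84 and 8.24 CPM with lean secretome and 12.2, 11.7 and 10.9 CPM with obese secretome. Lean libraries lay below all others, with a log2 change of -0.82 (SE 0.0947) over control and -0.67 (SE 0.0954) over obese secretome, given with no test. In NMuMG it had 4.42, 3.61 and 3.36 CPM in control, 2.39, 2.70 and 2.46 CPM with lean secretome and 3.30, 3.53 and 2.57 CPM with obese secretome. Axin2 fell there by 0.60 against control (SE 0.167, edgeR adjusted p = 0.00445), and the call was lost without control replicate 1 (adjusted p = 0.0529). Lean and obese secretome overlapped (log2 difference of -0.31, edgeR adjusted p = 0.179, interval from -0.652 to 0.036). Of 5506 exon bases of Axin2, 209 are shared with the antisense gene Gm11670, and the strand setting of the counting is not given in the sources used here.

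Ccn5 (Wisp2) encodes a secreted matricellular protein of the CCN family. In E0771 it had 10.1, 11.1 and 14.2 CPM in control, 31.7, 30.7 and 32.4 CPM with lean secretome and 25.7, 22.8 and 25.3 CPM with obese secretome. Both secretomes were above control without overlap, and lean was above obese. The log2 changes were 1.41 for lean over control (SE 0.0893), 1.06 for obese over control (SE 0.0915) and 0.35 for lean over obese (SE 0.0818), all with no test. In NMuMG the level was far lower, at 2.44, 3.33 and 2.58 CPM in control, 1.79, 2.16 and 2.02 CPM with lean secretome and 2.20, 1.72 and 1.86 CPM with obese secretome. Ccn5 fell there with lean secretome by 0.48 (SE 0.19, edgeR adjusted p = 0.0425), a call that held in 8 of 14 alternatives and failed under DESeq2 (adjusted p = 0.0907) and with no filter on low counts (adjusted p = 0.067). It also failed without control replicate 2 (adjusted p = 0.229), control replicate 3 (0.052), lean replicate 1 (0.144) or lean replicate 3 (0.0749). With obese secretome the change of -0.53 was not called (edgeR adjusted p = 0.117).

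Wnt9a encodes a secreted Wnt ligand. In E0771 it had 5.76, 5.06 and 5.19 CPM in control, 3.88, 3.93 and 4.29 CPM with lean secretome and 5.63, 5.13 and 4.89 CPM with obese secretome. Lean was lowest, with a log2 change of -0.43 over control (SE 0.127), given with no test. In NMuMG it had 1.29, 1.91 and 1.29 CPM in control, 3.04, 2.08 and 2.06 CPM with lean secretome and 1.72, 0.946 and 1.74 CPM with obese secretome. Lean was highest there: Wnt9a rose by 0.69 against control (SE 0.237, edgeR adjusted p = 0.0193) and was higher than with obese secretome by 0.71 (SE 0.242, edgeR adjusted p = 0.0205). The first call was lost without control replicate 1 (adjusted p = 0.0913), control replicate 3 (0.0826) or lean replicate 1 (0.177), and the second without lean replicate 1 (0.176) or obese replicate 2 (0.153).

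In NMuMG, lean secretome against control thus changed 6 of the 9 genes tested, Wnt9a upward and Tle2, Tle3, Tcf7, Axin2 and Ccn5 downward, where 38.2% of all 15014 genes were called, 19.1% in each direction. Lean against obese secretome called 3 of 9 (Tle2, Tcf7 and Wnt9a), where 35% of all genes were called. Obese secretome against control called 2 of 9 (Tle2 and Tle3), both downward, where 5.01% of all genes (752) were called, 2.66% downward. Leaving out 1 library moved that number by more than 1.5 times in 4 cases, to 384 or 465 (the first or the second control library) and to 490 or 482 (the first or the third obese library). In E0771, 8 of the 9 genes had lean libraries that did not overlap control, 4 higher and 4 lower. In that comparison 61.4% of 13813 genes did not overlap (32.2% higher and 29.2% lower) and 56.3% were called. Since the choice of genes used that comparison, nothing is read from the count. Between lean and obese secretome 7 of the 9 did not overlap, where 60.5% of all genes did not and 52.7% were called.

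**Figure D3:**
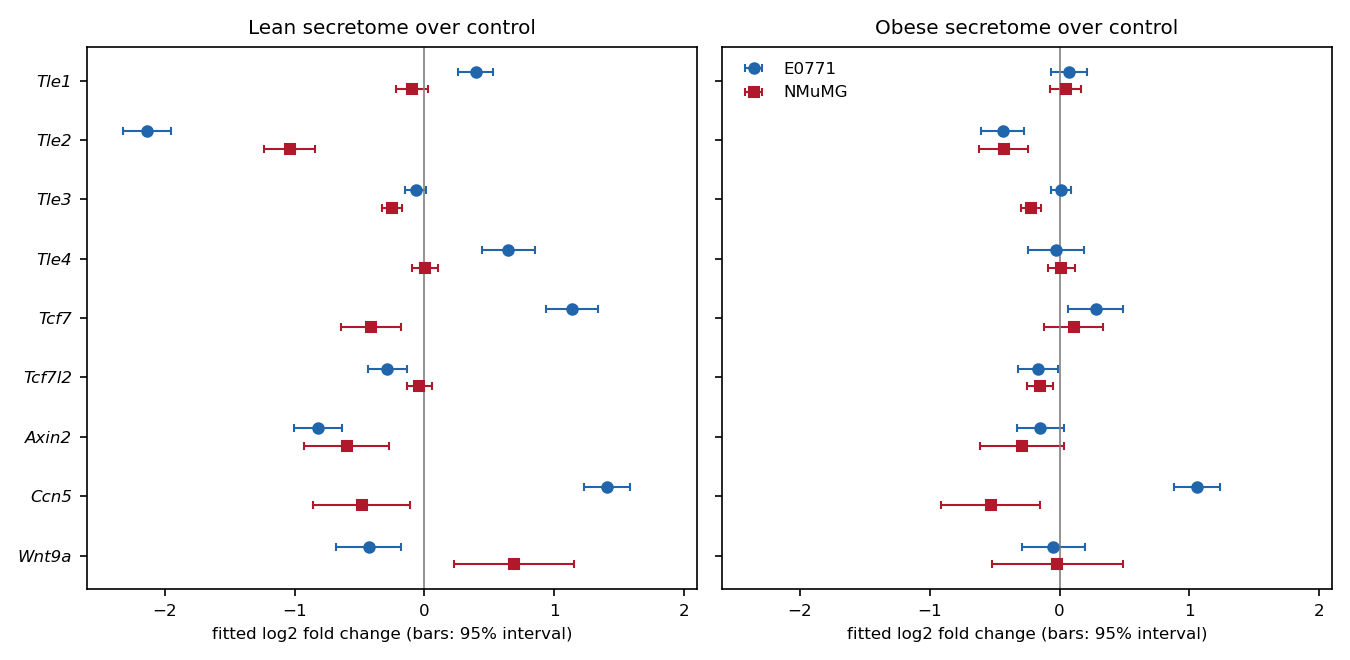
Fitted log2 fold change (horizontal axis; bars, 95% interval) of the 9 genes that passed the filter, for lean (left) and obese (right) secretome over control in E0771 (circles) and NMuMG (squares). Tle2 lies at -2.14 and -1.04 with lean secretome and at -0.44 and -0.43 with obese secretome, and Tcf7 and Ccn5 lie on opposite sides of 0 in the 2 lines with lean secretome.

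Obese secretome against control in E0771 called none of the 7 genes tested (Tle1, Tle3, Tle4, Tcf7, Tcf7l2, Axin2 and Wnt9a) by edgeR or by DESeq2, where 2.61% of all genes (360) were called. Leaving out 1 library moved that number to 79 (control replicate 1), 110 (control replicate 2), 192 (obese replicate 1), 89 (obese replicate 3) or 601 (lean replicate 3). At an unadjusted p under 0.05 there were 2, where 15.4% of all genes passed: Tcf7 (log2 change of 0.28, edgeR adjusted p = 0.199) and Tcf7l2 (-0.17, edgeR adjusted p = 0.302). The 95% intervals ran from -0.325 to 0.031 for Axin2, from -0.068 to 0.209 for Tle1 and from -0.067 to 0.092 for Tle3. The difference of the obese effects between the lines was called for 1 of these 7 genes, Tle3, where 1.69% of 16529 genes (279) were called. Tle3 differed by 0.24 (SE 0.0588, edgeR adjusted p = 0.0212), with a change of 0.01 in E0771 and -0.22 in NMuMG. That call was lost when any 1 of 8 libraries was left out, with an adjusted p of up to 0.114. These libraries were control replicates 1 and 2 and obese replicates 2 and 3 of E0771, and control replicates 1 and 2 and obese replicates 1 and 3 of NMuMG. Over all genes the number called was 149 to 392 with 1 library left out. It was under 279 by more than 1.5 times without control replicate 1 (151) or obese replicate 3 (149) of E0771, or without control replicate 1 (154), control replicate 2 (163) or obese replicate 1 (164) of NMuMG.

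The lines differed in which of these genes they held in control medium. Per kilobase of exon, Tle2 and Tle3 led in E0771 (12.2 and 12.0 CPM per kb, within 1 SD of each other), followed by Ccn5 at 6.13 and Tle1 at 2.90. Axin2 (2.31), Tcf7 (2.21) and Tcf7l2 (2.07) came next, each within 1 SD of its neighbour, and then Wnt9a (1.60) and Tle4 (1.35). In NMuMG the order was Tle3 (14.1), Tle4 (7.34) and Tcf7l2 (5.69), then Tle2 (3.11), Tle1 (3.01) and Tcf7 (2.85), each within 1 SD of its neighbour. Ccn5 (1.45), Axin2 (0.690) and Wnt9a (0.449) were lowest there apart from Lef1 (0.0141). With lean secretome Tle2 moved from rank 1 to rank 5 of 10 in E0771 (2.83 CPM per kb), and Ccn5 led at 16.4. Like the shares above, these ranks rest on the joined length of all annotated exons.

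In CPM on a scale common to the 18 libraries, 7 of the 8 genes tested differed between E0771 and NMuMG in control medium, 3 higher and 4 lower in E0771, where 80.5% of all genes were called (37.1% higher and 43.4% lower). Higher in E0771 were Ccn5 (log2 difference of 2.08, SE 0.126), Wnt9a (1.84, SE 0.183) and Axin2 (1.74, SE 0.116, edgeR adjusted p = 2.82e-17). Lower in E0771 were Tle4 (-2.44, SE 0.0784, edgeR adjusted p = 2.86e-28), Tcf7l2 (-1.46, SE 0.0617), Tcf7 (-0.35, SE 0.115, edgeR adjusted p = 0.00503) and Tle3 (-0.23, SE 0.0414). The call of Tcf7 was lost without NMuMG control replicate 2 (adjusted p = 0.056). Tle1 differed by -0.06 (edgeR adjusted p = 0.415, interval from -0.19 to 0.072). Tle2 was higher in E0771 by 1.97 (SE 0.103), given with no test.

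The summed level of 9 mesenchymal markers was lowest with lean secretome in E0771. It was 4453 to 4586 CPM in control, 2983 to 3205 CPM with lean and 4201 to 4363 CPM with obese secretome. In that list 4 of 6 tested genes fell with lean secretome (Vim, Twist1, S100a4 and Sparc) and none rose, 66.7% called against 56.3% of all genes. Zeb1 and Zeb2 were not called. In NMuMG the sum was 4429 to 4606 CPM in control and 3812 to 3957 CPM with lean secretome. There 1 of 9 tested genes fell (Fn1, by 0.69) and 1 rose (Cdh2, by 0.09), 22.2% called against 38.2% of all genes. Vim was not called there (log2 change of -0.003). The summed epithelial markers of NMuMG were at 7335 to 7797 CPM in control and 8103 to 8329 CPM with lean secretome, with 3 of 6 tested genes higher, 50% called against 38.2%. Of the adipocyte list, Cidec rose by 1.87 and Lipe by 0.30 with lean secretome in NMuMG, where 3 genes were tested, and Lipe rose by 0.30 in E0771, where 2 were; its sum was 28.5 to 31.0 CPM in NMuMG control and 34.6 to 39.1 CPM with lean secretome, and 8.33 to 9.36 and 9.11 to 12.0 CPM in E0771. Of 3 leukocyte markers tested in each line, 1 rose in NMuMG and none in E0771. The part of these markers in the results above was not tested. In bulk RNA, fewer cells that express a gene and less of its RNA per cell cannot be told apart.

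Other genes of the pathway were taken from lists written from general knowledge. Of 111 such genes, 55 were tested in E0771. Lean secretome against control called 36 of them there, 20 higher and 16 lower, which is 65.5% against 56.3% of all genes, with a median log2 change of 0.035 against -0.013. Of the relatives of the TLE genes, Tle5, a short family member known to counter the long ones, fell by 0.63 (SE 0.0552, edgeR adjusted p = 4.41e-09). Tle6, a divergent relative, fell by 0.74 (SE 0.0609, edgeR adjusted p = 3.11e-10).

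Target and feedback genes outside the 10 genes described above that could be tested mostly rose in E0771, unlike Axin2. Of 25 such genes only 10 passed the filter on low counts. Nkd2, Notum, Sp5 and Dkk1 were among those with 0 counts in all E0771 libraries. With lean secretome 8 of 10 tested rose and 1 fell, and the median of the 10 was 0.42. Ephb2 was among the 8, with a mean of 0.0116 CPM in control and 0.590 CPM with lean secretome. Of all genes, 27.3% were called higher and 29% lower. Fosl1, an AP-1 subunit, rose by 1.11 (SE 0.1) and the Notch ligand Jag1 by 0.73 (SE 0.084). Znrf3, a ubiquitin ligase that removes Wnt receptors, rose by 0.46 (SE 0.0554). Apcdd1, an inhibitor at the membrane, rose by 0.49 (edgeR adjusted p = 0.035), a call lost under DESeq2 (adjusted p = 0.0636) and with no filter on low counts (adjusted p = 0.0672). These genes are also known to answer to other pathways. Receptors were split, with 2 of 6 higher and 2 lower: Fzd2 fell by 0.71 (SE 0.0883) and Lrp5 by 0.26, while Ryk rose by 0.36 and Lrp6 by 0.16. Of the destruction complex and Dishevelled list 3 of 16 rose and 5 fell, Apc2 by 0.93 (SE 0.0825) and Amer1 by 0.32, beside rises of Csnk1e by 0.44 and Tnks by 0.25. Nuclear cofactors had 4 of 10 higher and 4 lower, with Ctnnbip1 up by 0.46 and Hdac2 by 0.29 and Ctbp1 down by 0.45. Bcl9l, a coactivator that joins beta-catenin to the transcription machinery, fell by 0.56 (SE 0.0419). Of 4 other CCN family genes tested, Ccn1 rose by 1.47 (SE 0.138) and Ccn4 by 0.38 (SE 0.0652), beside the higher Ccn5. None of the 4 was called lower, and 50% of them were called against 56.3% of all genes. Ccn2 was lower in all lean than in all control libraries, although not called (-0.32, edgeR adjusted p = 0.0776). In NMuMG with lean secretome, where Ccn5 was lower, 2 of 4 other CCN genes rose and 1 fell. The rises there were of Ccn1 by 1.11 (SE 0.0486) and Ccn2 by 0.75 (SE 0.0334), against the direction of Ccn5.

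In NMuMG 74 of the 111 genes were tested, and lean secretome against control called 43, 16 higher and 27 lower, which is 58.1% against 38.2% of all genes (median of -0.054 against -0.005). Target and feedback genes were split, with 8 of 18 higher and 6 lower, against 19.1% of all genes in each direction. Lgr5, an R-spondin receptor and stem cell marker, fell by 2.64 (SE 0.215, edgeR adjusted p = 3.85e-12), from a mean of 3.75 to 0.595 CPM. Myc, a growth regulator, rose by 0.69 (SE 0.0382), and the adhesion gene Nrcam by 1.59 (SE 0.151).

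The R-spondin axis, which stabilises Wnt receptors, fell in 5 of 6 genes tested and rose in none in NMuMG, 83.3% called against 38.2% of all genes and 19.1% of all genes lower: Rspo3 by 0.87 (SE 0.207), Rnf43 by 0.52 (SE 0.102), Lgr4 by 0.26 (SE 0.0467), and Lgr5 and Znrf3. Rnf43 and Znrf3 encode the receptor-removing ligases that R-spondins block, and they and Lgr5 also stand in the list of target genes. Of 15 receptor genes 8 fell and 2 rose (66.7% called against 38.2%), with Fzd1 at -0.73 (SE 0.0819) and Fzd2 at -0.55 (SE 0.0526) against Fzd5 at 0.45 (SE 0.047). Of the ligands, Wnt7a rose by 1.29 (SE 0.0766), while Wnt10a fell by 1.22 (SE 0.218) and Wnt4 by 0.68 (SE 0.089). The list named other factors that recruit TLE also holds HEY genes, for which recruitment of TLE is not assumed here. In NMuMG 7 of its 8 tested genes fell and none rose (87.5% called against 38.2%). Hey1 stood at -1.46 (SE 0.141), Runx3 at -0.69 (SE 0.209), Foxa1 at -0.49 (SE 0.0912) and Runx2 at -0.43 (SE 0.0508). In E0771 the same list had 2 of 6 higher and 2 lower (66.7% called against 56.3%). Tle5 and Tle6 were not called in NMuMG (log2 changes of -0.03 and -0.19).

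Obese secretome against control called 3 of 55 pathway genes in E0771 (5.45% against 2.61% of all genes) and 11 of 74 in NMuMG (14.9% against 5.01%). The count in E0771 was 1 without control replicate 1, control replicate 2 or obese replicate 3, and the count in NMuMG was 6 without control replicate 1 or obese replicate 1 and 7 without control replicate 3. The 3 in E0771, named after their values were seen, were the ligand Wnt7b (-0.22), the ligand transporter Wls (0.17) and Ctnnb1, which encodes beta-catenin (0.15). Lean against obese secretome called 30 of 55 in E0771 (54.5% against 52.7%) and 36 of 74 in NMuMG (48.6% against 35%). No list was tested as a set.

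**Figure D4:**
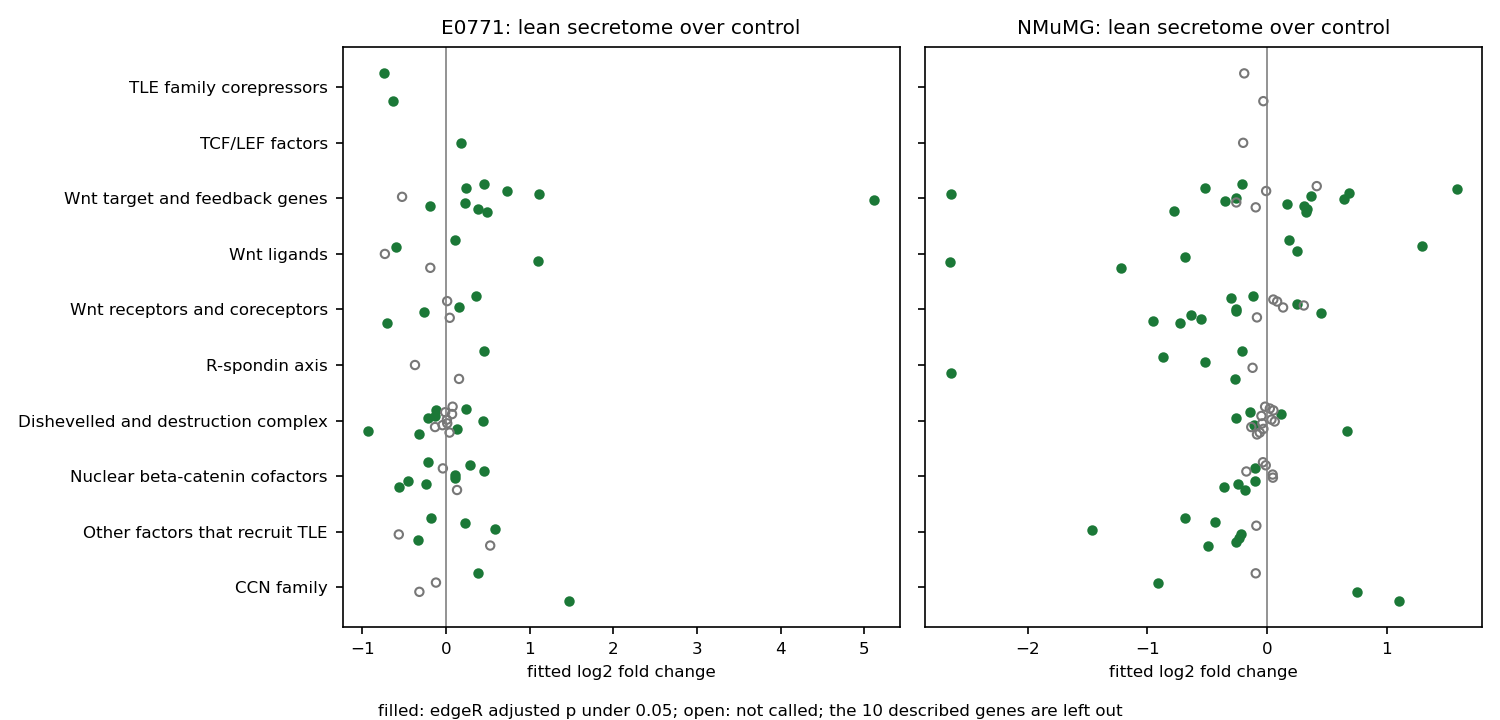
Fitted log2 fold change (horizontal axis, with its own range in each panel) of pathway genes for lean secretome over control in E0771 (left) and NMuMG (right), by list; filled points passed an edgeR adjusted p under 0.05. In NMuMG the filled points of the R-spondin axis and of the list named other factors that recruit TLE all lie left of 0. The point beyond 5 in E0771 is Ephb2, whose mean was 0.590 CPM with lean secretome and 0.0116 CPM in control.

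The genes whose levels followed Tle2 most closely over the 18 libraries, each centred on the control mean of its line, were Thra, Wdr90, Ccdc50, H2afv and Unc5b, with Pearson r from 0.973 to 0.984 among 8925 genes. For Axin2 they included Rmnd5a, Msra, C3 and Vps9d1 (r from 0.923 to 0.934). For Ccn5 they were Pygb, Rab8a, Glo1, Pdxdc1 and Hras (r from 0.939 to 0.954). These values describe the libraries, which fall into 6 groups of 3 and share their control means, and carry no test.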

How the data were processed

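Poly(A) RNA of 18 mouse libraries was sequenced with 150 bp paired reads from a directional kit, per the labels' protocols. The authors deposited raw counts per Ensembl gene ID. The submitters' processing notes name cutadapt 1.16, STAR 2.7.9a, featureCounts 1.6.3 and GRCm39; strand setting and annotation release are not given in the sources used here. Symbols (52073 IDs, 99.68% of counts) and exon-union lengths came from GENCODE M21 on GRCm38, another build than that of the counts. The coordinates printed are those of RefSeq start-site windows on GRCm38.p6, and no count was read by position.

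Each line was fitted with its 3 media in edgeR 4.0.16 (R 4.3.3; filterByExpr, TMM, robust quasi-likelihood F test). P-values were adjusted by Benjamini-Hochberg over all genes tested, with calls at an adjusted p under 0.05. A fit of all 18 libraries gave line differences, differences of effects and the common CPM scale. DESeq2 1.42.0 was an alternative. The code was tested on simulated data. For the 18 replicate pairs, chi-square per degree of freedom was 2.30 to 8.44 against counting error, so no library was taken for a copy of another. Reads carry no molecular identifiers, so floors cover counting error only.

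The genes and lists were chosen with earlier results of these data known. The text names all 10 genes and, from each list, some of up to 4 called genes with the largest change for lean over control (mean log2 CPM: 1 or more). It also names the 5 genes with the highest r to Tle2, Axin2 and Ccn5, among genes at log2 CPM 2 or more in both lines; 1 of these is not reported here.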

Additional observations from a re-analysis of the deposited data

Results flagged for a closer look

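Fitted effects of the secretomes differed in size or direction between E0771 and NMuMG for several genes, in most cases with no test. The difference of the obese effects was tested for Tle3 and was 0.24 (log2, E0771 minus NMuMG, SE 0.0588, edgeR adjusted p = 0.0212). As given above, that call was lost when any of several single libraries was left out. In the other cases the media compared did not overlap in either line, with opposite directions, and the difference was not tested. In E0771, 61.4% of all genes did not overlap for lean over control and 60.5% for lean over obese secretome. The share of all genes with opposite directions was not counted. Of all 16529 genes in the fit of both lines, the lean effects differed between the lines for 5710 (lean over control) and 5656 (lean over obese). Nothing is therefore read from the number of genes named here. In NMuMG, Tle1 was not called (edgeR adjusted p = 0.235 for lean over control and 0.0743 for lean over obese). Ccn5 with obese secretome was not called there either (edgeR adjusted p = 0.117). For lean secretome over control the difference was 0.52 for Tle1, 1.57 for Tcf7 and 1.91 for Ccn5, which were higher in E0771 and lower in NMuMG. For Wnt9a it was -1.10, lower in E0771 and higher in NMuMG. For lean over obese secretome it was 0.48 for Tle1, 1.40 for Tcf7 and -1.08 for Wnt9a. For obese secretome over control it was 1.59 for Ccn5, whose rise in E0771 was known when the genes were chosen.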

How the results depend on the processing

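Alternatives were DESeq2 size factors, no filter on low counts, DESeq2, the replicate block, only the 2 groups compared, and leaving out each library in turn. Of the values for counts of called genes and for the Tle2 changes in E0771, 184 were the same (counts within 1.5 times) and 16 moved. Of single-gene values 1172 were the same, 30 lost a call, 2 gained one and none reversed. With 1 library left out, the number of genes called in NMuMG was 4 to 6 for lean over control, 2 to 3 for lean over obese and 1 to 3 for obese over control. In E0771 it was 0 for obese over control. Between the lines it was 6 to 7, and for the difference of the obese effects 0 to 1. The Tle2 change in E0771 ran from -2.22 to -2.04 for lean over control and from -1.77 to -1.63 for lean over obese. For the pathway genes, where leaving out libraries was added after seeing the data, obese over control called 1 to 3 in E0771 and 6 to 12 in NMuMG, lean over control 29 to 36 and 37 to 43, and lean over obese 26 to 30 and 29 to 37. For Wnt5a in NMuMG the call was lost under DESeq2 (adjusted p = 0.0785), and for Hdac1 under DESeq2 (0.062) and with no filter (0.0549); the cause was not tested.

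Replicate numbers were not treated as pairs: same-numbered libraries of different media had deviations whose correlation lay between -0.0942 and 0.11 in E0771 (9 pairs) and between -0.0285 and 0.025 in NMuMG (9 pairs). With the replicate block, the counts of called genes stayed at 6, 3 and 2 in NMuMG, 0 in E0771 and 1 for the difference of the obese effects, and the Tle2 changes at -2.14 and -1.70. The SkBr3 comparison was not run, since no table pairing human IDs with symbols was used here. Lef1, Wnt9a and Ccn5 in NMuMG are limited by depth, with at most 4 counts of Lef1 in a library.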
